A study of Mus musculus with 6 samples.

Results

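A set of 30 genes of the lysosome was followed across all arrays of a mouse neutrophil experiment: 9 proteases, 6 enzymes that cut sugar chains, 4 proteins of lipid breakdown and their cofactors, 5 membrane proteins and 6 parts of the proton pump. They were taken by gene symbol from the deposited value table, and 28 of the 30 had a probe set under their symbol, out of 18193 named genes. All 28 passed the filter on low signal and were among the 10960 genes tested. Cd63, a tetraspanin of late endosomes and azurophil granules, and Atp6v0c, the ring subunit of the proton pump, were not analysed here.

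The arrays came from blood neutrophils of phd3 null mice and of wild type mice, 3 of each, on a C57 background. PHD3 is a prolyl hydroxylase that uses oxygen to modify its targets and is encoded by Egln3. Cells of both groups were purified from single mice by negative magnetic selection and spent 4 h at 3% oxygen, so low oxygen was common to both and the comparison was one of genotypes. Each array was taken as 1 mouse, and no sample at normal oxygen was analysed here. The labels do not give the deleted stretch of the gene, nor say whether the deletion covers every tissue. In bulk RNA, fewer cells of a type and less RNA per cell cannot be told apart.

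As a check of the labels, Egln3 had signals of 87.2, 29.6 and 73.5 in phd3 null samples 1, 2 and 3 and of 2088, 1734 and 327 in wild type samples 1, 2 and 3. Means were 63.4 ± 30.1 (SD, n = 3) and 1383 ± 931 (SD, n = 3), and every phd3 null array lay below every wild type array. The log2 difference was -3.85 (SE 0.65), with a limma adjusted p of 0.9996 across all genes and of 0.00140 once the replicate number was a block. The sources used here do not place the probe set relative to the deletion. Same-numbered arrays of the genotypes share a source code in the labels. Both arrays numbered 3 stood apart: their median signal was 60.3 to 64.2, against 49.4 to 52.1 on the other 4, and their median correlation with the other arrays was 0.740 to 0.771, against 0.794 to 0.812. Of 9 neutrophil markers listed, 7 had a probe set, and S100a8, a calcium-binding protein that fills the neutrophil cytosol, read 16458, 20429 and 11103 in the phd3 null samples and 25479.7, 20951 and 17949 in the wild type samples. Markers of monocytes and macrophages were also present, with Csf1r, the receptor for their growth factor, at 8836, 10858 and 3538 in the phd3 null samples and at 11088, 10046 and 4049 in the wild type samples. Below, values are in the order of samples 1, 2 and 3, signals are MAS5 intensities, differences are phd3 null minus wild type on the log2(signal + 16) scale, and a gene was called where its Benjamini-Hochberg adjusted p from limma was under 0.05.

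Lysosomes are acidic compartments in which proteases, glycosidases and lipid hydrolases break down material delivered by endocytosis, phagocytosis and autophagy. The vacuolar ATPase pumps protons into them, heavily glycosylated membrane proteins line them, and in neutrophils several of the same hydrolases are stored in azurophil granules for release into phagosomes. Many lysosomal genes carry the CLEAR element in their promoters, a sequence built on the E-box CACGTG and bound by TFEB, TFE3 and MITF.

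The promoter table used here, from RefSeq on mouse assembly GRCm38.p6, covers 250 bases before to 50 bases after each gene start and had an entry for 24 of the 30 genes. CACGTG, which reads the same on both strands, was in a promoter of 8 of these 24 genes (33.3%), against 8.09% of 27025 genes in the table. The longer TCACGTG, searched on both strands and always containing the shorter motif, was in 7 of the 24 (29.2%), against 4.29% of all genes. The 8 genes with the motif were Ctsa, Ctsd, Ctsl, Lgmn, Gaa, Lamp1, Atp6v0d1 and Atp6v1a. By role, that was 4 of 7 proteases with an entry, 1 of 6 glycosidases, 0 of 3 lipid genes, 1 of 4 membrane genes and 2 of 4 pump genes. A match is a description of the letters and not a measured binding site. The 24 bases around the match nearest the gene start follow, in the direction of transcription with the motif in capitals, because the motif is a sequence feature these genes share.
Ctsa: gcagatgctCACGTGaccagagct
Ctsd: cccgcgtctCACGTGacccgttga
Ctsl: gttagaagcCACGTGctgatctaa
Lgmn: aatgtctgtCACGTGgtccatttt
Gaa: ctgtgcgatCACGTGtttgactct
Lamp1: tgaccacatCACGTGcggaacgga
Atp6v0d1: tactgcggtCACGTGagacgcggt
Atp6v1a: tttttaaatCACGTGataggctta
These windows lie within the promoters at chr2:164833523-164833822 on the + strand for Ctsa, chr7:142387778-142388077 on the - strand for Ctsd, chr13:64370471-64370770 on the - strand for Ctsl, chr12:102439043-102439342 on the - strand for Lgmn, chr11:119267713-119268012 on the + strand for Gaa, chr8:13158911-13159210 on the + strand for Lamp1, chr8:105566015-105566314 on the - strand for Atp6v0d1, and chr16:44139210-44139509 on the - strand for Atp6v1a. Lamp1 had 4 copies within its 300 bases, Ctsd and Ctsa had 2, and the others had 1. In Ctsl the motif was not preceded or followed by the letters of the longer form. With the gene start as base 1 and no base 0, the copy nearest the start ran from base 6 to base 11 in Ctsa, across the start from base -3 to base 3 in Atp6v0d1, and from base -131 to base -126 in Atp6v1a. Ctsa and Lgmn each had another entry, for a different gene start, without the motif. The motif-bearing promoters of Ctsa and Atp6v1a are printed whole. These are the genes with the motif that were also called for the replicate number below.
Ctsa: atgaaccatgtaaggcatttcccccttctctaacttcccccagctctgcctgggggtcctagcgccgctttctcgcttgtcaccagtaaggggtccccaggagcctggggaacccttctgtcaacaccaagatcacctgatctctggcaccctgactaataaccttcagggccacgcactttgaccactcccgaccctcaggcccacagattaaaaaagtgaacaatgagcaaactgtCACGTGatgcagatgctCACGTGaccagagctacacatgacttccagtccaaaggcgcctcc
Atp6v1a: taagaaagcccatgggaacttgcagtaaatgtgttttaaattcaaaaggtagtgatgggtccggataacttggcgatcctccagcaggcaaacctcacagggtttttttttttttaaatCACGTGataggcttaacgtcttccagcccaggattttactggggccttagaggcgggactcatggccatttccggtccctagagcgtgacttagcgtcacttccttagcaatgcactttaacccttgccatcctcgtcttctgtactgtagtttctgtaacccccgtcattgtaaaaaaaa
Both sequences are 300 bases long, with every CACGTG in capitals. The G and C content was 54.7% for Ctsa and 45.3% for Atp6v1a.

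No lysosomal gene was called for genotype. The count was 0 of 28 in the limma fit without a block, where 0.0% of all genes were called (0 of 10960), and 0 of 28 with the replicate number as a block, where 0.0182% were called (2 of 10960). At an unadjusted p under 0.05 the counts were 0 of 28 without the block, against 1.74% of all genes, and 1 of 28 with it, against 5.62%. In the probe sets that stood for them, the groups overlapped in all 28 genes, whereas they were apart in 6.92% of all genes tested, 3.9% with the phd3 null arrays higher and 3.02% with them lower. With both samples numbered 3 left out, which leaves 2 arrays per genotype, 0 of 28 were called, against 0.00912% of all genes (1 of 10960), and 3 of 28 had an unadjusted p under 0.05, against 4.74%. Those 3 were the proteases Ctsa, Ctsc and Ctsh. In the fit of all 6 arrays, differences ran from -0.38 for Psap to 0.67 for Ctsa. Both moved with single arrays: Psap lay between -0.69 without wild type sample 3 and -0.039 without phd3 null sample 3, and Ctsa between 0.18 and 1.15 without the same arrays. In 16 genes the phd3 null mean was higher and in 12 lower, with a median of 0.026, against -0.0065 over all genes tested. That median was 0.13 after quantile normalization and -0.016 when all probe sets of a gene were averaged. The 95% intervals of these differences reached from -1.55 to 1.86 without the block and from -0.88 to 1.17 with it, so the missing calls do not show that the genotypes were alike in these genes. The plot of every gene on every array shows these overlaps, and the plot of genotype differences shows the intervals.

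**Figure D1:**
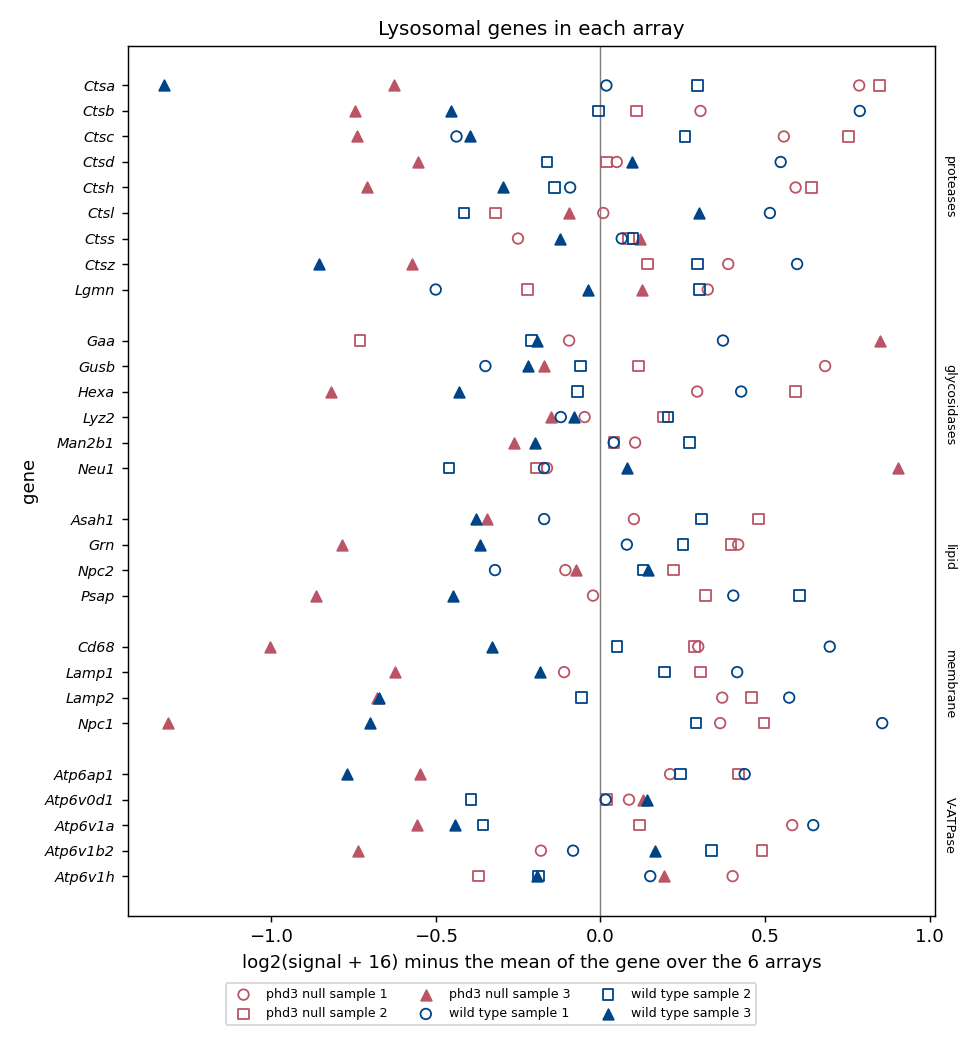
Level of each of the 28 lysosomal genes on each of the 6 arrays, as log2(signal + 16) minus the mean of that gene over the arrays, with genes grouped by role. Open symbols are samples 1 and 2, filled triangles sample 3, red phd3 null and blue wild type; in 15 genes both filled triangles lie left of the other 4 symbols, and in no gene do the red and blue symbols separate.

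**Figure D2:**
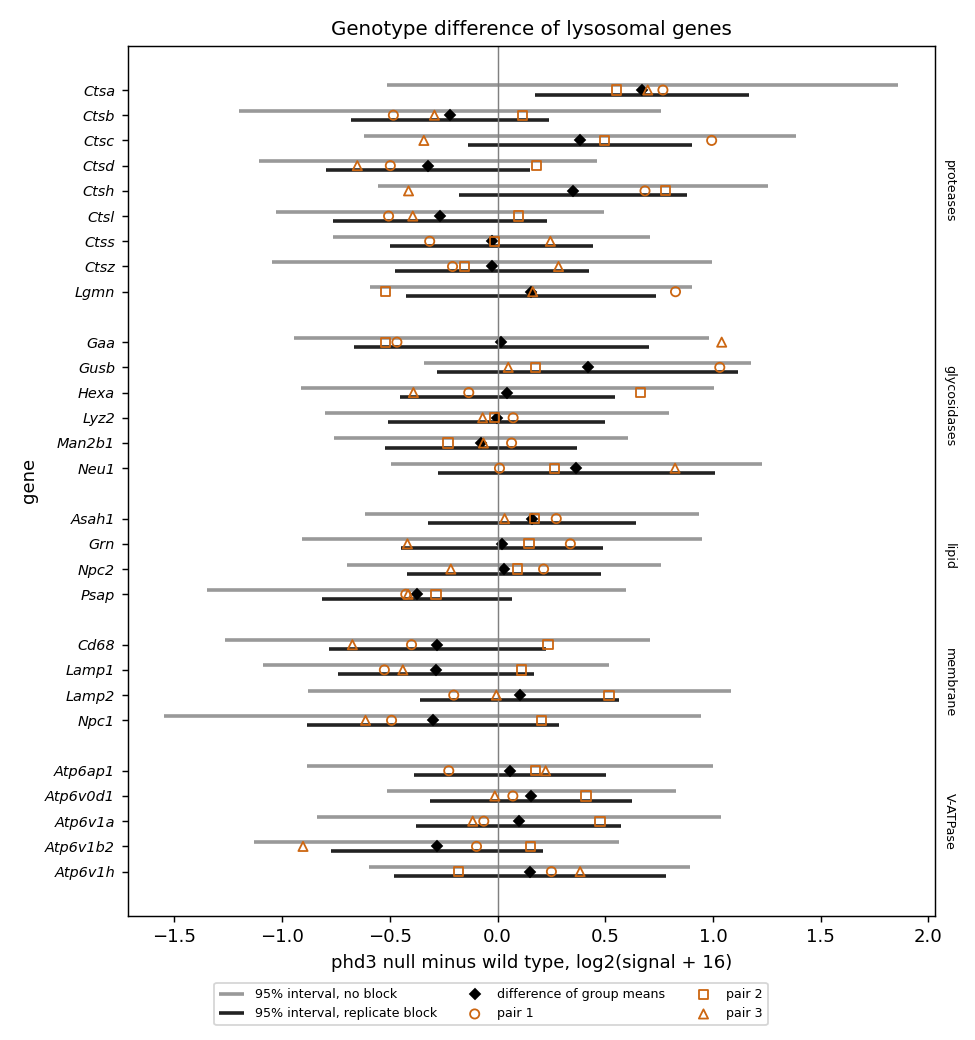
Difference of phd3 null minus wild type for each gene on the log2(signal + 16) scale, as the difference of group means (diamond) and the difference within each same-numbered pair (orange symbols). Bars are 95% intervals from limma without a block (grey) and with the replicate number as a block (black); every grey bar crosses 0 and 1 black bar, that of Ctsa, does not.

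Among the proteases, Ctsa had the smallest p. Cathepsin A is a serine carboxypeptidase that also protects the sialidase Neu1 and beta-galactosidase inside the lysosome. Its signals were 646, 675 and 233 in the phd3 null samples and 373, 455 and 137 in the wild type samples, with means of 518 ± 247 and 322 ± 165 (SD, n = 3 each). The phd3 null array was the higher one in each same-numbered pair, by 0.77, 0.55 and 0.70, yet phd3 null sample 3 lay below wild type samples 1 and 2, so the groups overlapped. The difference was 0.67 (SE 0.53), with an unadjusted p of 0.234 and an adjusted p of 0.9996 in limma. With the replicate block the unadjusted p was 0.0111 and the adjusted p 0.809, so Ctsa did not pass in either fit. A second Ctsa probe set above the filter gave 0.16.

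In their brightest probe sets, Ctsc and Ctsh differed in direction between the pairs. Ctsc encodes dipeptidyl peptidase 1, which activates the serine proteases of neutrophil granules, and its signals were 2887, 3311 and 1167 in the phd3 null samples and 1442, 2343 and 1484 in the wild type samples. Its difference was 0.38 (SE 0.45), and by pair 0.99, 0.50 and -0.34. Ctsh, an aminopeptidase, had signals of 1098, 1136 and 436 in the phd3 null samples and 677, 655 and 586 in the wild type samples, a difference of 0.35 (SE 0.40) and pair differences of 0.68, 0.78 and -0.41. For both genes, phd3 null samples 1 and 2 were the higher ones of their pairs and phd3 null sample 3 was the lower one. Without both samples numbered 3 the differences were 0.75 for Ctsc and 0.73 for Ctsh, with unadjusted p-values of 0.0295 and 0.0165 and an adjusted p of 0.966 in limma. The direction in pair 3 was not shared by all probe sets of Ctsc: its other 2 above the filter, both with a much lower signal, were higher in 3 of 3 pairs, with differences of 0.70 and 1.36, and in the latter the groups did not overlap. With all probe sets averaged the Ctsc difference was 0.81, and it was not called.

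Ctsd, the aspartic protease of lysosomes, pointed the other way without passing the test. Its signals were 2183, 2136 and 1430.4 in the phd3 null samples and 3088, 1883 and 2255 in the wild type samples, and the difference was -0.32 (SE 0.35). Ctsb, a cysteine protease that also trims peptides, had signals of 3483, 3043 and 1674 in the phd3 null samples and 4876, 2808 and 2054 in the wild type samples. Wild type sample 1 was its highest array, and the difference was -0.22 (SE 0.44). Ctsz, a carboxypeptidase, had signals of 3165, 2668 and 1619.5 in the phd3 null samples and 3661, 2965 and 1328 in the wild type samples and a difference of -0.026 (SE 0.45). Its spread lay between sample 3 and the other samples in both genotypes rather than between the genotypes. The other 3 proteases, Ctsl, Ctss and Lgmn, had differences from -0.27 to 0.16. Ctss, a cysteine protease that processes the invariant chain for antigen presentation, was the steadiest of them across arrays, at 3794, 4792 and 4914 in the phd3 null samples and 4724, 4836 and 4143 in the wild type samples. Lgmn, an endopeptidase that cuts after asparagine and matures other cathepsins, had pair differences of 0.83, -0.52 and 0.16, which differ in sign. Over the 9 proteases, 4 were higher and 5 lower. The median was -0.026, which became 0.077 after quantile normalization and 0.16 when all probe sets of a gene were averaged.

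Among the glycosidases, Gusb had the smallest p. Gusb, which removes glucuronic acid from glycosaminoglycans, had signals of 229.5, 149.7 and 119.9 in the phd3 null samples and 104, 131 and 115 in the wild type samples, a difference of 0.42 (SE 0.34) and an unadjusted p of 0.245. In this probe set the phd3 null array was the higher one in each pair, by 1.03, 0.18 and 0.050, with most of the difference in pair 1. A second Gusb probe set above the filter had pair differences of -0.21, -0.17 and 0.94. Neu1, the sialidase held stable by cathepsin A, had signals of 145, 142 and 322 in the phd3 null samples and 144, 115 and 175 in the wild type samples. Its difference of 0.37 (SE 0.38) rested on phd3 null sample 3, the highest array, with pair differences of 0.0090, 0.27 and 0.82, and the mean over its probe sets was -0.093. Man2b1, an alpha-mannosidase, was nearly level, at 845, 808 and 651 in the phd3 null samples and 807, 950.1 and 682 in the wild type samples, with a difference of -0.077 (SE 0.30).

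Hexa, the alpha subunit of beta-hexosaminidase, had signals of 1098, 1354 and 499 in the phd3 null samples and 1206, 850.1 and 659.5 in the wild type samples, lowest in both samples numbered 3, and a difference of 0.046 (SE 0.43). Gaa, which breaks down glycogen in the lysosome, had signals of 199, 122 and 397 in the phd3 null samples and 281, 182 and 185 in the wild type samples and a difference of 0.018 (SE 0.43). Its phd3 null sample 3 was the highest array, and without both samples numbered 3 the difference was -0.49. Lyz2, the lysozyme of myeloid cells that cuts bacterial cell walls, had signals of 9505, 11219.8 and 8852 in the phd3 null samples and 9039.5, 11331 and 9287 in the wild type samples and a difference of -0.0037 (SE 0.36). Its probes may also pick up the closely related Lyz1, so the value is uncertain to that extent. Of the 6 glycosidases 4 had higher phd3 null means and 2 lower ones, and the median was 0.032. No glycosidase was called for genotype or for the replicate number.

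Psap was the gene of lipid breakdown with the smallest p. It encodes prosaposin, the precursor of the saposins that present sphingolipids to their hydrolases. Its signals were 2811, 3566 and 1563 in the phd3 null samples and 3781, 4351 and 2090.4 in the wild type samples, and the phd3 null array was the lower one in each pair, with differences of -0.43, -0.29 and -0.42. The difference was -0.38 (SE 0.43), with an unadjusted p of 0.407 and of 0.0895 with the replicate block, and neither passed. By brightest probe set, Psap was the only one of the 28 genes lower in all 3 pairs, a pattern of 13.0% of all genes tested. On the same basis 4 genes (Ctsa, Gusb, Neu1 and Asah1) were higher in all 3 pairs, a pattern of 12.6% of all genes. Other probe sets above the filter often differed from this. Those of Neu1 and Atp6v1a, and some of Ctsb, were lower in all 3 pairs. Those of Ctsa and Gusb were not higher in all 3, while those of Ctsc were. Asah1, acid ceramidase, had signals of 455, 597 and 329.7 in the phd3 null samples and 374, 527 and 322 in the wild type samples and a difference of 0.16 (SE 0.34). Npc2, the soluble protein that hands cholesterol to Npc1, had signals of 2576, 3239 and 2637 in the phd3 null samples and 2219, 3035 and 3068 in the wild type samples, with a difference of 0.030 (SE 0.33). Grn, whose product progranulin is cut into granulins in the lysosome, had signals of 3504, 3452 and 1513 in the phd3 null samples and 2768, 3119 and 2027 in the wild type samples, lowest in both samples numbered 3, and a difference of 0.022 (SE 0.41). The median of the 4 genes was 0.026, and it was -0.054 when all probe sets of a gene were averaged.

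The 4 membrane proteins had a median difference of -0.28, with 3 lower and 1 higher, and none passed the test. Their direction changed with the pair: all 4 were lower in the phd3 null array of pair 1 (median -0.45) and of pair 3 (median -0.53), and all 4 were higher in pair 2 (median 0.22). Lamp1, a main glycoprotein of the lysosomal membrane, had signals of 1556, 2079 and 1086 in the phd3 null samples and 2247, 1925 and 1478 in the wild type samples and a difference of -0.28 (SE 0.36). Lamp2, its partner in the membrane and the receptor of chaperone-mediated autophagy, had signals of 1560.4, 1661 and 747 in the phd3 null samples and 1799, 1156 and 750.1 in the wild type samples and a difference of 0.10 (SE 0.44). In pair 3 its arrays were almost equal, and its probe sets gave differences from -0.35 to 0.10.

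Cd68, or macrosialin, a lysosomal glycoprotein much used as a macrophage marker, had signals of 671, 665 and 263 in the phd3 null samples and 889, 563 and 429 in the wild type samples and a difference of -0.28 (SE 0.44). Npc1, which exports cholesterol from the lysosome, had signals of 306, 337 and 84.7 in the phd3 null samples and 436, 289.8 and 138 in the wild type samples and a difference of -0.30 (SE 0.56). In both genes wild type sample 1 was the highest array and phd3 null sample 3 the lowest. The median of the membrane group was 0.22 when phd3 null sample 3 was left out and 0.026 when wild type sample 1 was left out.

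The 5 measured parts of the proton pump had a median difference of 0.099, with 4 higher and 1 lower, and none passed. Atp6v1a, the subunit that hydrolyses ATP, had signals of 931, 671 and 414 in the phd3 null samples and 974, 478 and 450.2 in the wild type samples and a difference of 0.099 (SE 0.42), and its second probe set gave -0.66. Atp6v1b2, a B subunit of the same cytosolic sector, had signals of 1257, 2012 and 850.2 in the phd3 null samples and 1346, 1807 and 1604 in the wild type samples. Its difference of -0.28 (SE 0.38) came mostly from pair 3, with pair differences of -0.098, 0.15 and -0.90. Atp6v1h, which couples the cytosolic sector to the membrane sector, had signals of 221, 123 and 189 in the phd3 null samples and 183, 142 and 141 in the wild type samples and a difference of 0.15 (SE 0.33).

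Atp6v0d1, a subunit of the membrane sector, had signals of 615, 585 and 633 in the phd3 null samples and 584, 436 and 639 in the wild type samples, with a difference of 0.16 (SE 0.30). Here the arrays numbered 3 were the highest of their genotypes. Atp6ap1, an accessory protein needed to assemble the pump, had signals of 1355, 1567 and 795 in the phd3 null samples and 1588, 1386 and 678 in the wild type samples, lowest in both samples numbered 3, and a difference of 0.057 (SE 0.42). The pump median became -0.0345 without phd3 null sample 1, -0.096 without wild type sample 3 and 0.26 without wild type sample 1.

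Set side by side, no role group separated the genotypes. Medians were -0.026 for proteases, 0.032 for glycosidases, 0.026 for lipid genes, -0.28 for membrane proteins and 0.099 for the pump. Over all 28 genes the median was -0.081 in pair 1, 0.16 in pair 2 and -0.092 in pair 3, with 13, 20 and 10 genes higher in the phd3 null array of these pairs. The spread of the overall median between pairs (SD 0.14, n = 3) was larger than the median itself. For the membrane group the SD between pairs was 0.41, against a median of -0.28.

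More of these genes were called for the replicate number than for genotype. In a limma F-test of the replicate number beside genotype, 9 of the 28 genes were called, against 11.1% of all genes tested (1218 of 10960) and 21.3% of genes above the 75th percentile of signal (1293 of 6063). All 28 lysosomal genes lay above that percentile, and with the test run there 11 of them were called. The 9 were Ctsa, Ctsb, Ctsz, Psap, Lamp2, Cd68, Npc1, Atp6v1a and Atp6ap1. In each of them both samples numbered 3 were the lowest of the 6 arrays, a pattern that together with a call was found in 6.83% of all genes. None of the 28 was called with both samples numbered 3 the highest, against 3.22% of all genes. By role, the calls were 3 of 9 proteases, 0 of 6 glycosidases, 1 of 4 lipid genes, 3 of 4 membrane genes and 2 of 5 pump genes. The glycosidases therefore stood at 0 calls where the membrane genes stood at 3 of 4, a difference between the groups that was not tested. A gene could lie lowest in both samples numbered 3 without being called, as Hexa and Man2b1 did among the glycosidases.

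Sample 3 against the mean of samples 1 and 2, averaged over the genotypes, gave -1.51 for Npc1 (adjusted p = 0.00723 in the limma F-test) and -1.46 for Ctsa (adjusted p = 0.00262). Ctsz, with -1.07, and Psap, with -0.98, followed at adjusted p-values of 0.0118 and 0.0174. These genes serve cholesterol export, peptide trimming and sphingolipid breakdown. Lamp2, Cd68 and Atp6ap1 shifted by -1.01, -0.999 and -0.99, with adjusted p-values of 0.0193, 0.0331 and 0.0213. Ctsb and Atp6v1a shifted by -0.90 and -0.75, at 0.0244 and 0.0334. Just short of the threshold were Hexa, at -0.93 with an adjusted p of 0.0544, Grn, at -0.86 with 0.0610, and Ctsc, at -0.85 with 0.0712. The only genes with both samples numbered 3 above the other 4 were Neu1, at 0.74, and Atp6v0d1, at 0.20, and neither was called.

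Counting arrays instead of calls, both samples numbered 3 lay below the other 4 in 15 of 28 genes, against 16.9% of all genes tested and 25.9% of genes above the 75th percentile. They lay above in 2 of 28, against 18.5% of all genes. All 4 membrane genes were in the lower class, with 3 of 4 lipid genes, 4 of 9 proteases, 2 of 6 glycosidases and 2 of 5 pump genes. The median shift was -0.57 over the 28 genes, against 0.095 over all genes tested and -0.062 over genes above the 75th percentile. Group medians were -1.0045 for membrane genes, -0.75 for proteases, -0.70 for lipid genes, -0.43 for the pump and -0.23 for glycosidases. The shift was -0.78 among the phd3 null arrays and -0.33 among the wild type arrays, and the difference between these was not tested.

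**Figure D3:**
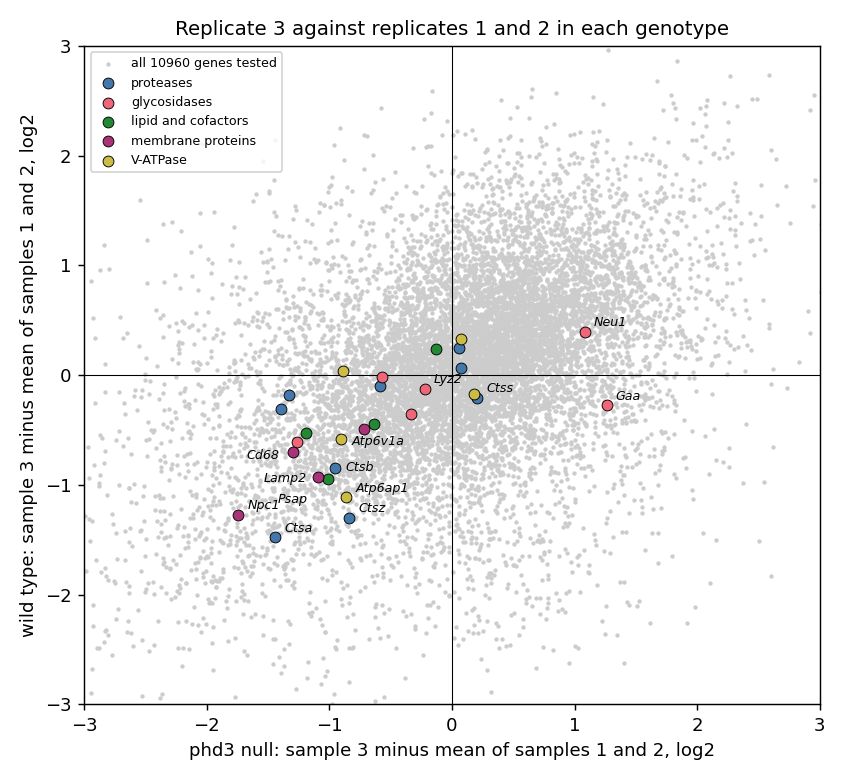
Shift of sample 3 from the mean of samples 1 and 2 on the log2(signal + 16) scale, phd3 null on the x axis and wild type on the y axis, with the 28 lysosomal genes coloured by role over all 10960 genes tested in grey. Most coloured points lie in the lower left, with Neu1 and Gaa to the right; 94 genes lie outside the axes, which end at 3.

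The count of calls depended on the processing. It was 9 with a trend in the prior variance, and without the trend it was 0 of 28 and 0 of 10960, or 0.0%, with 6 of 28 and 1883 of 10960 at an unadjusted p under 0.05. It was 5 of 28 after quantile normalization, against 9.07% of all genes, and 2 of 28 when all probe sets of a gene were averaged, against 6.67%. Leaving out phd3 null sample 3 gave 2 of 28, against 7.89% of all genes, and leaving out wild type sample 1 gave 3 of 28, against 10.3%. Leaving out phd3 null sample 1 gave 5 of 28, against 10.2%, and leaving out wild type sample 2 gave 14 of 28, against 15.0%. With averaged probe sets, or without phd3 null sample 3 or wild type sample 1, the share of lysosomal genes called was therefore near that of all genes. The position of the arrays moved less: the lower class held 11 of 28 genes after quantile normalization, against 17.8% of all genes. With averaged probe sets it held 13 of 28, against 17.6%. The median shifts in these settings were -0.40 and -0.36, against 0.020 and 0.055 over all genes tested. Of 16 lysosomal genes with several probe sets above the filter, 8 had probe sets whose shifts differed in sign, among them Ctsa and Ctsb. The 4 probe sets of Lamp2 agreed in sign, but their shifts ran from -1.08 to -0.16. In the Lamp2 probe set with the smallest shift, the samples numbered 3 overlapped with the others.

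Several cell type markers moved with the same arrays, and others did not. The summed signal of the 12 measured monocyte and macrophage markers of 16 listed was 4743 and 5615 in the samples numbered 3, against 11260.3 to 13341 in the other 4. Csf1r and Adgre1, which encodes the macrophage surface protein F4/80, accounted for most of that sum, were the 2 of 7 tested markers with both samples numbered 3 below the other 4, and were both called for the replicate number, with adjusted p-values of 0.00325 and 3.17e-04. Adgre1 read 1048, 982 and 298 in the phd3 null samples and 1198, 1039 and 333 in the wild type samples. The list did not move as one: Cx3cr1 and Ccr2 shifted by -0.94 and -0.73, Mertk, Fcgr1 and Mrc1 by 0.20, 0.58 and 1.05, and Fcgr1 had both samples numbered 3 above the other 4. Ccr2 was also called for the replicate number, with an adjusted p of 0.00846 in the limma F-test. Sample 2 was the highest Ccr2 array in each genotype, and wild type sample 1 was the lowest. Cd163, C1qa, C1qb, C1qc and Siglec1, which mark tissue macrophages, were below the filter, and no marker was at exactly 0.

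The summed signal of the 7 measured neutrophil markers was 24866.7 in phd3 null sample 3 and 41333 in wild type sample 3, and it ran from 37736 to 53984 in the other 4 arrays. Its lowest sum was that of phd3 null sample 3, and S100a8 and S100a9 accounted for most of the sum on every array. Cxcr2, a chemokine receptor that guides neutrophils, read 840.1, 979 and 25.6 in the phd3 null samples and 559, 837 and 227 in the wild type samples, and Csf3r, the receptor for granulocyte colony-stimulating factor, read 3536, 5118 and 1282 in the phd3 null samples and 2787, 2113 and 1746 in the wild type samples. These were the 2 of 7 tested neutrophil markers with both samples numbered 3 below the other 4. S100a8, Camp and S100a9 shifted by -0.54, -0.47 and -0.35 with overlapping arrays, and Ltf and Mmp9 by -0.12 and -0.062. The summed signal of 5 measured B cell markers of 6 listed was 2902 and 2203 in the samples numbered 3, against 206 to 474 in the others. Both samples numbered 3 lay above the other 4 in 4 of the 5, while the arrays of Pax5 overlapped. For 5 measured T cell markers of 6 listed the sum was 585 and 450.4, against 122 to 318. Of the 4 tested, 3 had both samples numbered 3 above the others and Cd5 overlapped. Cd3e, below the filter, shifted by -0.079. Other lists varied by replicate number in another way, with their lowest sums in sample 1 of each genotype. NK cell markers summed to 455, 2200 and 1941 in the phd3 null samples and to 1095, 4992 and 2906.5 in the wild type samples. Of the 5 tested, 3 were called for the replicate number. Erythroid markers summed to 862, 3898 and 6860 and to 2700.5, 6086 and 4937, with 2 of 4 called. The part of cell composition in the shift of the lysosomal genes was not tested.

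**Figure D4:**
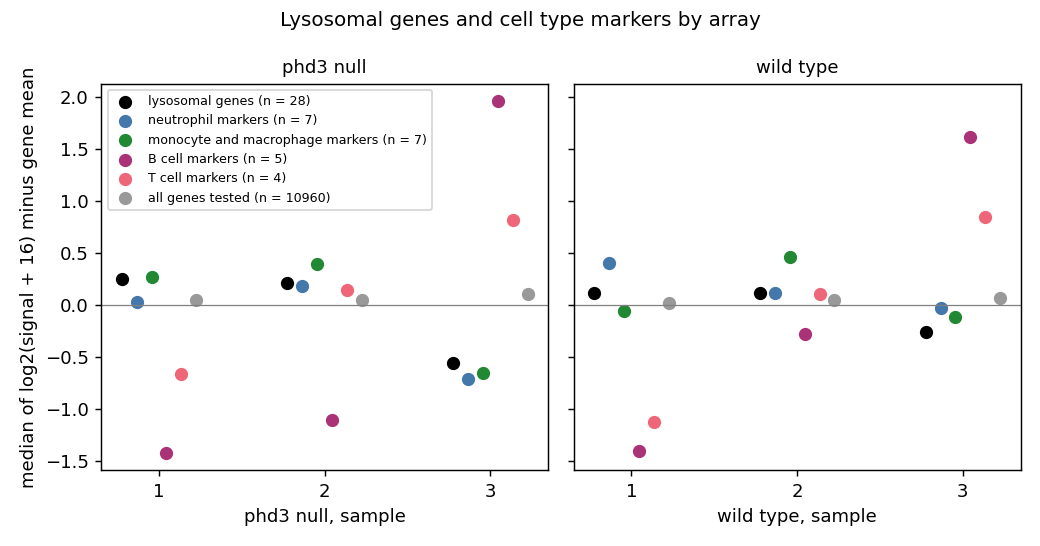
Median level of the tested lysosomal genes and of 4 lists of cell type markers on each array, as log2(signal + 16) minus the mean of each gene over the 6 arrays, with all 10960 genes tested in grey. In sample 3 the lysosomal medians were -0.55 (phd3 null) and -0.26 (wild type), while the B cell medians were 1.96 and 1.61.

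Beyond these genes, 98 further genes of the lysosome were listed in 8 lists: other proteases, other sugar hydrolases and sulfatases, lipid and nucleic acid hydrolases, membrane proteins and transporters, the remaining pump subunits, sorting receptors, regulators, and cathepsin inhibitors. Of these, 88 had a probe set and 75 were tested. In limma 0 of 75 were called for genotype without or with the block. An unadjusted p under 0.05 was found in 1 of 75 without the block, against 1.74% of all genes, and in 8 of 75 with it, against 5.62%. Differences were higher in 31 and lower in 44, and the median was -0.0615. For the replicate number 14 of 75 (18.7%) were called, against 11.1% of all genes. In 25 (33.3%) both samples numbered 3 lay below the other 4, against 16.9%. Of the 75 genes, 54 lay above the 75th percentile of signal. With the test run only on genes above that percentile, 21.3% of genes were called. The 18.7% is a share of all 75 in the fit of all genes, so it cannot be set directly against the 21.3%. Among the 54, both samples numbered 3 lay below the other 4 in 22, against 25.9% of genes above that percentile. Over the 75 genes the median shift was -0.30. The remaining pump subunits gave 4 of 14 calls and 9 of 14 in the lower class, and the other sugar hydrolases gave 0 of 11 on both counts.

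The further genes with the smallest genotype p did not pass. Galns, a sulfatase of keratan sulfate, had signals of 5.8, 21.1 and 42.9 in the phd3 null samples and 115, 72.2 and 67.9 in the wild type samples, a difference of -1.45 (SE 0.59) and an unadjusted p of 0.0352. Its 3 phd3 null arrays were all below the wild type ones, and lay below the median signal of their own arrays. Dpp7, a dipeptidyl peptidase, had signals of 89.1, 75.4 and 24.4 in the phd3 null samples and 81.3, 146 and 116 in the wild type samples and a difference of -0.81 (SE 0.46). Gm2a, the activator protein that lets beta-hexosaminidase reach GM2 ganglioside, had signals of 1390.2, 1715 and 794 in the phd3 null samples and 872, 759 and 699 in the wild type samples and a difference of 0.67 (SE 0.36), higher in 3 of 3 pairs. Glb1, lysosomal beta-galactosidase, had signals of 82.9, 95.8 and 121 in the phd3 null samples and 9.8, 75.6 and 76.4 in the wild type samples and a difference of 0.93 (SE 0.55), also higher in 3 of 3 pairs. Wild type sample 1 was its lowest array.

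The promoter motif was also set beside the replicate calls. CACGTG was in 2 of 7 genes that were called for the replicate number and had a promoter entry, and in 6 of 15 tested genes that were not called. Of the further lysosome genes, 19 of 78 with an entry (24.4%) had it.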

How the data were processed

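Gene expression was measured on 6 Affymetrix arrays, 3 per genotype. The deposited intensities are MAS5 signals, per the submitters' processing notes, and are linear in size. No version of MAS5 is stated in the sources used here. The algorithm works within 1 array and scales all arrays alike, and the mean after trimming 2% at each end was 100 for all 6. No detection calls entered. Dim signals vary more on the log scale, and the number of arrays limits the precision.

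Of 45101 probe sets, 64 controls were left out; 34945 had 1 gene symbol in the annotation used, 932 several and 9160 none. Each gene was represented by its brightest probe set, and a gene was tested where the mean of log2(signal + 16) reached 5.90, the 50th percentile over probe sets other than controls. Of the 10960 genes tested, 6917 had several probe sets. Differences were fitted with limma 3.58.1 in R 4.3.3 (lmFit, eBayes with trend, two-sided), with Benjamini-Hochberg adjustment over all genes tested. The code was tested on simulated data. There the fit without a block recovered 1 of 50 genes with a log2 change of -2 and 9 of 50 with 2. With the replicate block it recovered 26 and 47 of 50, with 18 false calls. The pseudocount of 16 understates changes of dim genes.

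Same-numbered arrays share a source code, and their deviations from the group means correlated at 0.292, 0.151 and 0.474 in pairs 1, 2 and 3, against -0.363 to 0.177 for arrays of different number. The number was therefore also fitted as a block. The labels do not say what the code marks.

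The genes and lists were chosen with earlier results of these data known. Values in every sample are given for genes called for genotype or replicate number and for the 3 of smallest genotype p in each role; of the further lysosome genes, the 2 of smallest p in each direction are named.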

Additional observations from a re-analysis of the deposited data

How the results depend on the processing

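Genotype calls among the 28 genes stayed at 0 under every alternative run: pseudocounts of 1 and 64, quantile normalization, no filter, a filter at the 75th percentile, averaged probe sets, no trend, array weights, the replicate block, each array left out, and both samples numbered 3 left out. Over all genes the count was 2 with the replicate block, 1 without both samples numbered 3, and 0 to 1 with each array left out. With the replicate block Egln3 was called at the same difference, -3.85; it was also called at -4.81 without both samples numbered 3 and at -4.68 without wild type sample 3. The block changed no other call described here.

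The replicate number called 602 genes with averaged probe sets and 0 without the trend. Among the 28 genes it called 5 after quantile normalization, 2 with averaged probe sets, 0 without the trend, and 2 to 14 with each array left out. Describing the shift of sample 3 by the position of its arrays, and repeating that under the other settings, was added after seeing the data.

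Medians of small groups moved with single arrays. With each array left out the median ran from -0.13 to 0.13 over all 28 genes, from -0.059 to 0.24 for glycosidases, from -0.50 to 0.22 for membrane genes and from -0.096 to 0.26 for the pump. The glycosidase median was 0.12 after quantile normalization and with array weights, and 0.083 without both samples numbered 3.

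Of the 28 genes, 7 kept the sign of their difference in all 16 settings and 21 did not. With averaged probe sets Ctsl gave 0.30, Neu1 -0.093, Npc2 -0.22, Lamp2 -0.097 and Atp6v1a -0.28. After quantile normalization Ctss gave 0.0078, Ctsz 0.077 and Lyz2 0.14. With array weights Lyz2 gave 0.025 and Gaa -0.30. Without both samples numbered 3 Lyz2 gave 0.029, Gaa -0.49, Atp6v1b2 0.028 and Atp6ap1 -0.026. With each array left out, ranges that crossed 0 were as follows. Among the proteases they were Ctsb -0.50 to 0.12, Ctss -0.096 to 0.090, Ctsz -0.46 to 0.27 and Lgmn -0.055 to 0.35. Among the glycosidases they were Lyz2 -0.10 to 0.098, Hexa -0.24 to 0.47, Gaa -0.40 to 0.39 and Man2b1 -0.19 to 0.040. Among the lipid genes they were Grn -0.18 to 0.42, Npc2 -0.12 to 0.11 and Asah1 -0.041 to 0.37. Among the membrane genes they were Lamp2 -0.21 to 0.47, Cd68 -0.51 to 0.15 and Npc1 -0.72 to 0.28. Among the pump genes they were Atp6v0d1 -0.0006 to 0.27, Atp6v1a -0.17 to 0.45, Atp6v1b2 -0.60 to 0.015, Atp6v1h -0.013 to 0.37 and Atp6ap1 -0.31 to 0.34. The causes were not tested. None of the 28 genes passed the genotype test in any of these settings.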

Other observations

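Several further lysosome genes fell in the samples numbered 3, and those named here were chosen after their values were seen. Of the 9 tested genes in the list of regulators, 3 were called for the replicate number, against 11.1% of all genes. In 4 of the 9 both samples numbered 3 lay below the other 4 arrays, against 16.9%. A link between regulators and the shift was not tested. Mitf, a transcription factor of the family that binds the CLEAR element, had signals of 1103, 1254 and 158 in the phd3 null samples and 1672, 1161 and 224 in the wild type samples. Sample 3 lay -2.66 (log2) from the mean of samples 1 and 2, with an adjusted p of 1.18e-05 in the limma F-test of the replicate number. Its relative Tfeb, the best known regulator of lysosomal genes, had signals of 298, 208 and 45.5 in the phd3 null samples and 145, 173 and 83.6 in the wild type samples, a shift of -1.46 and an adjusted p of 0.0456. Lamtor1, which anchors the nutrient-sensing Ragulator complex to the lysosomal membrane, had signals of 1232, 1168 and 288 in the phd3 null samples and 1356, 865 and 335 in the wild type samples and a shift of -1.82 (adjusted p = 2.38e-04).

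Slc11a1, the metal transporter NRAMP1 of phagosomes and late endosomes, had signals of 1864, 1083 and 289.5 in the phd3 null samples and 3031, 1895 and 491 in the wild type samples, a shift of -2.24 and an adjusted p of 1.52e-05. Its genotype difference was -0.74 (SE 0.77), lower in 3 of 3 pairs, with an adjusted p of 0.586 in the fit with the replicate block. Lipa, the acid lipase that frees cholesterol from its esters, had signals of 1082, 927 and 247 in the phd3 null samples and 1636, 1671 and 325 in the wild type samples and a shift of -2.12 (adjusted p = 5.31e-05). It too was lower in 3 of 3 pairs, with a genotype difference of -0.60 (SE 0.71). Cstb, an inhibitor of cysteine cathepsins, had signals of 5937, 5419 and 2174 in the phd3 null samples and 11258, 7212 and 2682 in the wild type samples, a shift of -1.56 and an adjusted p of 0.00108. M6pr, the receptor that carries newly made hydrolases to the lysosome, had signals of 2306, 1584 and 734 in the phd3 null samples and 2719, 1927 and 685 in the wild type samples and a shift of -1.54 (adjusted p = 4.66e-04). Gga2, an adaptor that sorts these receptors, was the only one of the 14 called that was highest in the samples numbered 3, at 52.0, 73.1 and 259.5 in the phd3 null samples and 27.5, 46.2 and 246 in the wild type samples.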
